A study of Mus musculus with 6 samples.

Results

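The 9 genes followed here belong to GDNF-RET signalling and the ureteric tip: Gdnf, Gfra1, Ret, Etv4, Etv5, Slco4c1, Sox8, Sox9 and Spry1. They were picked by symbol, as the ligand, its receptors and the genes that respond to it in the tip. All 9 were present among the 24749 genes of the expression table and all 9 passed the filter on low values (an average of 0.5 FPKM or more, where FPKM is fragments relative to transcript length and to sequencing depth), which left 16899 genes for testing. RNA came from whole mouse kidneys at E15.5 (age in embryonic days), with 3 libraries in each of 2 groups. The first group, labelled Foxd1cre; Yapc/c;Tazc/c and called knockout here, carries loxP-flanked alleles of both Yap (Yap1) and Taz (Wwtr1) and a Cre recombinase driven by Foxd1, a gene of the stromal progenitors. The second group is labelled wild-type (Cre negative), and the labels do not state whether these controls carried floxed alleles. Strain was mixed in both groups, and the labels do not say if each library is a separate embryo. The p-values thus set the group difference against the spread between these libraries, part of which may be technical.

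GDNF is a growth factor secreted by the mesenchyme around the ureteric bud, the epithelial outgrowth that branches to form the collecting ducts. It binds the co-receptor GFRA1 on cells of the ureteric tip, and the complex activates the receptor tyrosine kinase RET. Signals from RET raise the transcription factors ETV4 and ETV5, which maintain tip cells and branching, and they also raise SPRY1, an intracellular antagonist of receptor tyrosine kinase signalling that limits branching. The Foxd1 lineage of the stroma lies around the cap mesenchyme and the tips, whereas the tips themselves belong to the ureteric lineage. In RNA of a whole organ, more cells of a type and more RNA per cell cannot be told apart, and this holds for each value that follows.

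The lowest steps of the deposited values put the effective size at about 12800000 to 15400000 fragments a library. The values were already scaled between libraries, so this is not a count of sequenced fragments. Of the 15 pairs of libraries 0 were identical. Of the floxed genes, Wwtr1 was lower in knockout kidneys (18.8 ± 1.26 in wild type against 12.9 ± 0.635 FPKM, SD, n = 3 each; log2 change -0.51, limma adjusted p = 0.0235), and Yap1 was not called (51.0 ± 4.95 against 45.4 ± 2.94 FPKM, adjusted p = 0.378). These are levels of whole genes and include transcripts without floxed exons. Wild-type library 3 stood apart in nerve and chromaffin genes. Th, which encodes the first enzyme of catecholamine synthesis, measured 17.8 FPKM there and at most 0.0918 FPKM in any other library. The summed level of 12 nerve, Schwann cell and chromaffin markers was 106 FPKM in that library and 9.17 to 12.3 FPKM in the other 5, and 4 of the 12 stayed under 1 FPKM in each library, with 0 of the 12 at 0 throughout. The log2 changes of Ret and Gfra1, which nerve cells can also express, are therefore given with and without it.

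No gene of the 9 was called in knockout against wild-type kidneys by limma at an adjusted p under 0.05 (0 of 9, where 0.734% of all tested genes were called). At an unadjusted p under 0.05 Spry1, Etv5, Etv4 and Ret were higher in knockout kidneys and 0 were lower, that is 4 of 9 genes, where 9.14% of all tested genes were higher and 6.94% lower at that threshold. Of the 9 log2 changes 8 lay above 0, Gdnf being the exception, where 49.6% of all tested genes lay above 0. The median log2 change of the 9 was 0.16, beside -0.002 over all tested genes. For 6 of 9 genes (Gfra1, Ret, Etv4, Etv5, Sox9 and Spry1) each knockout library lay above each wild-type library, and 12.5% of all tested genes did so. That count was 3 of 9 when libraries were rescaled to equal sums of FPKM, leaving Etv4, Etv5 and Spry1, and it was 6 of 9 without wild-type library 3. The list is a choice of symbols made with earlier results of these data known, so its counts describe these 9 genes and are not a test of the pathway.

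**Figure D1:**
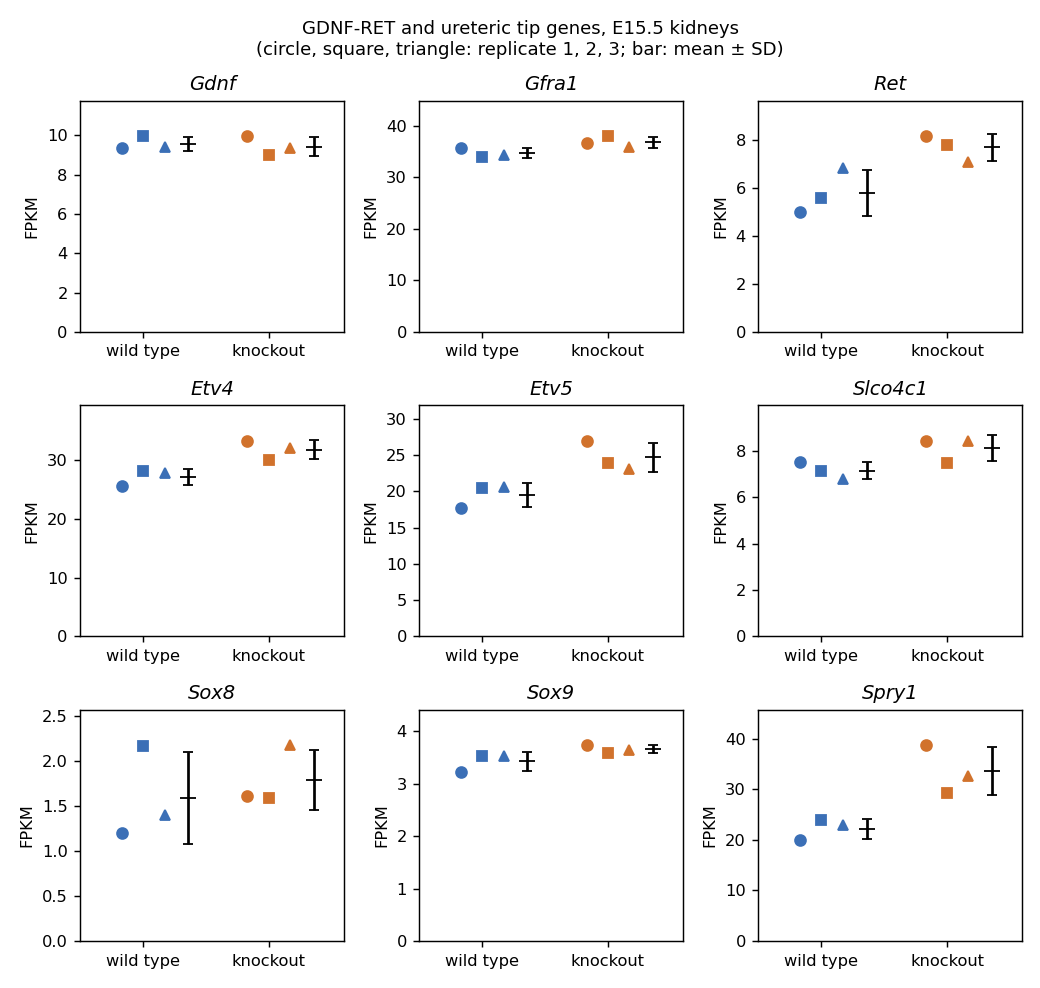
FPKM of each of the 9 genes (vertical axis, starting at 0) in wild-type (blue) and knockout (orange) kidneys. Circles, squares and triangles are replicates 1, 2 and 3, and the black bars give the mean ± SD of 3 libraries. Spry1 shows the widest gap, with knockout libraries at 29.4 to 38.8 FPKM and wild-type libraries at 20.03 to 23.9 FPKM, while Gdnf libraries of both groups lie between 9.02 and 9.97 FPKM.

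Upstream sequences are shown for 3 of the genes: Spry1, which had the largest difference, Gfra1, the other gene whose window held letters searched for, and Gdnf, whose level hardly differed. RefSeq promoter windows on GRCm38.p6 were matched by symbol for 6 of the 9 genes (8 windows, since Etv5 and Gdnf have 2 start sites each), and Ret, Etv4 and Sox9 had none in the table used. Each run below is the 250 bases before a start site, 5′ to 3′ on the strand of the gene, and capitals mark matches to the motifs searched on both strands.
Spry1, chr3:37639697-37639946, plus strand: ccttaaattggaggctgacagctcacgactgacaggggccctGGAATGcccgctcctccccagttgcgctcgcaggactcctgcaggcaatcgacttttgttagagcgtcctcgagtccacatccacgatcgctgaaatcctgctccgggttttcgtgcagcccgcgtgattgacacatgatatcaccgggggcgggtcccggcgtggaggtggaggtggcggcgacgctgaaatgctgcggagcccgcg
Gfra1, chr19:58455399-58455648, minus strand: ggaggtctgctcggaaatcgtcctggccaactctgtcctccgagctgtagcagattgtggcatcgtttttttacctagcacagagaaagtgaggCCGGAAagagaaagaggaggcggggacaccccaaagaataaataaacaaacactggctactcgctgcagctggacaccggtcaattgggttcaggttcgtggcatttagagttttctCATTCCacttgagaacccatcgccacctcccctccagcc
Gdnf, chr15:7809798-7810047, plus strand: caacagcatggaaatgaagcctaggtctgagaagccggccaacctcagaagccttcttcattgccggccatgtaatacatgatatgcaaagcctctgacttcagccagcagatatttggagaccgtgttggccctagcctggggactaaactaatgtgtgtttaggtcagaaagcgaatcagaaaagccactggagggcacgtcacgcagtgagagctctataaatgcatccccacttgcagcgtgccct
The motifs were GGAATG (reverse complement CATTCC), bound by the TEAD factors through which YAP and TAZ act, CCGGAA, whose reverse complement is TTCCGG, a core of ETS factors such as ETV4 and ETV5, and AACAAT, whose reverse complement is ATTGTT, a core of SOX factors. The TEAD and ETS motifs share the letters GGAA and can overlap. The Spry1 window held 1 TEAD motif, whose first base lies 208 bases upstream of the start. The Gfra1 window held 1 TEAD motif at 39 bases and 1 ETS motif at 156 bases upstream. The other 6 windows of Gdnf, Etv5, Slco4c1 and Sox8 held none of the 3 motifs. Across all 32851 windows of the same length, 12.6% held the TEAD motif, 12.0% the ETS motif and 9.42% the SOX motif. A match describes the letters in these windows and is neither a binding site nor a cause of a difference.

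Gdnf, the ligand (chromosome 15, 7810846 to 7837575, plus strand, GRCm38) did not differ between the groups by more than the spread of the libraries. It measured 9.34, 9.97 and 9.39 FPKM in wild-type libraries 1, 2 and 3, and 9.94, 9.02 and 9.33 FPKM in knockout libraries 1, 2 and 3. The groups overlap throughout, and the highest and the second highest values come from different genotypes. The means were 9.57 ± 0.347 and 9.43 ± 0.472 FPKM (SD, n = 3 each). The log2 change of -0.02 (SE 0.07, limma adjusted p = 0.917) had a 95% confidence interval from -0.18 to 0.14, which on the FPKM + 1 scale spans 11.7% lower (-11.7%) to 10.3% higher. An exact permutation test gave p = 0.5. About 425 to 535 fragments stand behind each library's value, and counting alone would give an SD of up to 4.85% of the level, next to a measured SD of 3.62% in wild-type and 5.003% in knockout kidneys.

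Gfra1, the co-receptor that binds GDNF (chromosome 19, 58235604 to 58455909, minus strand), was the most highly expressed of the 9 genes in both groups. Its values were 35.7, 34.0 and 34.4 FPKM in wild-type libraries and 36.6, 38.0 and 35.9 FPKM in knockout libraries. The groups do not overlap, but only 0.182 FPKM separates the lowest knockout from the highest wild-type library. Means of 34.7 ± 0.889 and 36.8 ± 1.07 FPKM (SD, n = 3 each) gave a log2 change of 0.08 (SE 0.05, 95% confidence interval -0.03 to 0.20, limma adjusted p = 0.451). The gene is also expressed in nephron progenitors, so its total is not a measure of the tip alone. Without wild-type library 3 the log2 change was 0.08 (limma adjusted p = 0.529). An antisense gene model, Gm16277, overlaps 416 bases of its exons on the opposite strand.

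Ret, the receptor tyrosine kinase of the tip (chromosome 6, 118151745 to 118197718, minus strand), was higher in each knockout library than in any wild-type library. Wild-type libraries 1, 2 and 3 measured 4.97, 5.56 and 6.82 FPKM, and knockout libraries 1, 2 and 3 measured 8.15, 7.79 and 7.08 FPKM. The gap between the groups, 0.256 FPKM, is set by wild-type library 3, the highest of its group. Means were 5.78 ± 0.948 and 7.67 ± 0.544 FPKM (SD, n = 3 each), so that knockout kidneys held 133% of the wild-type level. The log2 change of 0.36 (SE 0.11, 95% confidence interval 0.10 to 0.63) had an unadjusted p of 0.0137 by limma and was not called (adjusted p = 0.201, exact permutation p = 0.1, the minimum for 3 against 3 libraries). Without wild-type library 3 the log2 change was 0.47 and the adjusted p 0.0781. Sympathetic nerve cells express Ret, and in that library Gfra3, the receptor for artemin of such cells, measured 3.82 FPKM against at most 0.324 FPKM elsewhere. The part of nerve RNA in the Ret value of that library was not tested.

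Both ETS factors downstream of RET lay above wild type in each knockout library. Etv5 (chromosome 16, 22381309 to 22439719, minus strand) measured 17.6, 20.4 and 20.6 FPKM in wild-type libraries and 27.0, 23.9 and 23.1 FPKM in knockout libraries. Its means were 19.5 ± 1.64 and 24.7 ± 2.06 FPKM (SD, n = 3 each), 126% of wild type, with a log2 change of 0.32 (SE 0.08, 95% confidence interval 0.13 to 0.52, limma adjusted p = 0.154). Etv4 (chromosome 11, 101769742 to 101785371, minus strand) measured 25.6, 28.1 and 27.7 FPKM in wild-type libraries and 33.3, 30.0 and 31.99 FPKM in knockout libraries. The lowest knockout library was 1.88 FPKM above the highest wild-type library for Etv4 and 2.52 FPKM above it for Etv5. Etv4 means of 27.1 ± 1.38 and 31.8 ± 1.65 FPKM (SD, n = 3 each) gave 117% of wild type and a log2 change of 0.22 (SE 0.06, 95% confidence interval 0.07 to 0.36, limma adjusted p = 0.178). The FPKM ratio of Etv5 to Etv4 was 0.719 ± 0.0260 in wild-type and 0.776 ± 0.0484 in knockout kidneys (SD, n = 3 each), with overlapping libraries (exact permutation p = 0.3).

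Spry1, the feedback antagonist (chromosome 3, 37639947 to 37644598, plus strand), had the largest difference of the 9. Wild-type libraries measured 20.03, 23.9 and 22.9 FPKM, and knockout libraries 38.8, 29.4 and 32.7 FPKM. Each knockout library exceeded the highest wild-type library, by at least 5.51 FPKM, and knockout library 1 stood highest. Means were 22.3 ± 1.99 and 33.6 ± 4.77 FPKM (SD, n = 3 each), 151% of wild type. The log2 change of 0.57 (SE 0.11, 95% confidence interval 0.31 to 0.82) was not called over all genes (limma unadjusted p = 0.00101, adjusted p = 0.0782, exact permutation p = 0.1), and it ranked at position 219 by p among the 16899 genes. Its adjusted p lay between 0.0529 and 0.293 over the alternatives. Spry1 is not specific to the tip, being expressed in nephron progenitors and other mesenchyme too, and a gene model of unverified transcripts, Gm42922, overlaps 710 bases of its exons on the opposite strand.

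The SOX factors and the transporter showed smaller differences. SOX8 and SOX9 act together in the tip, where they keep the response to RET. Sox9 (chromosome 11, 112782224 to 112787760, plus strand) measured 3.22, 3.54 and 3.54 FPKM in wild-type libraries and 3.74, 3.59 and 3.64 FPKM in knockout libraries, a narrow separation of 0.0575 FPKM (log2 change 0.07, 95% confidence interval -0.12 to 0.26, limma adjusted p = 0.690). Sox8 (chromosome 17, 25565892 to 25570686, minus strand), the lowest of the 9, measured 1.20, 2.17 and 1.40 FPKM in wild-type libraries and 1.62, 1.59 and 2.18 FPKM in knockout libraries. These groups overlap, and the interval of its log2 change of 0.12 runs from -0.25 to 0.49 (limma adjusted p = 0.738). The approximate 46 to 101 fragments behind each value would alone give an SD of up to 14.7%. An antisense gene, 2810468N07Rik, overlaps 329 bases of Sox8 exons and averaged 1.68 FPKM in wild type against 1.79 FPKM in knockout. Slco4c1, an organic anion transporter gene used as a marker of the tip (chromosome 1, 96816270 to 96872171, minus strand), measured 7.54, 7.13 and 6.80 FPKM in wild-type libraries and 8.45, 7.49 and 8.43 FPKM in knockout libraries. Knockout library 2 lay within the wild-type range, and the log2 change of 0.16 (95% confidence interval -0.02 to 0.35) was not called (limma adjusted p = 0.369).

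**Figure D2:**
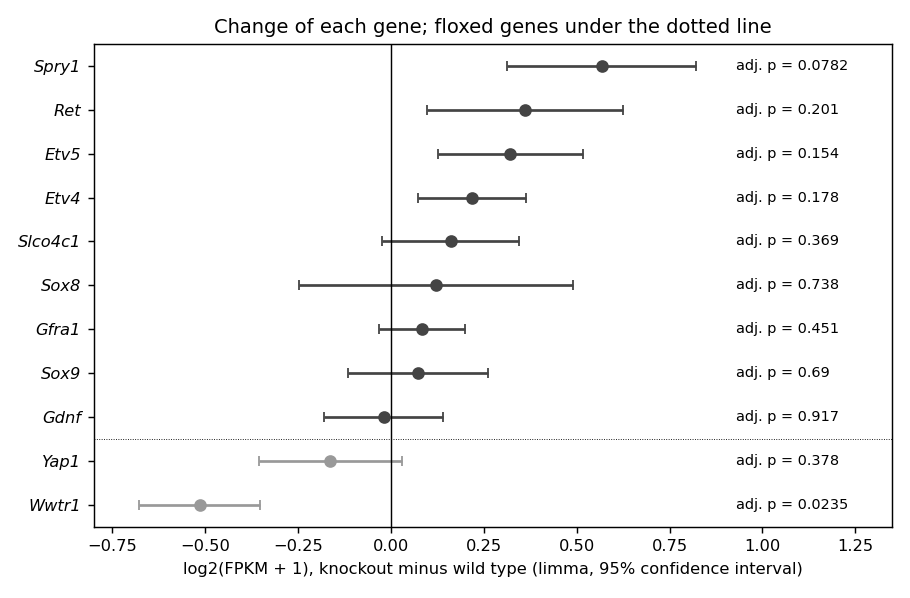
Log2 change on the log2(FPKM + 1) scale, knockout minus wild type (horizontal axis), with 95% confidence intervals from limma, for the 9 genes ordered by size and, under the dotted line, for the floxed genes Yap1 and Wwtr1. The intervals of Spry1, Ret, Etv5 and Etv4 lie above 0 before adjustment, and those of the other 5 include 0.

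Since FPKM is scaled to transcript length, levels can be ordered across the genes. In wild-type kidneys the order from high to low was Gfra1, Etv4, Spry1, Etv5, Gdnf, Slco4c1, Ret, Sox9 and Sox8, and libraries of neighbours overlapped only for Spry1 with Etv5 and for Slco4c1 with Ret. In knockout kidneys Spry1 (33.6 FPKM) and Etv4 (31.8 FPKM) stood in reverse order, with overlapping libraries, and the other positions were as in wild type. The co-receptor was thus measured at a higher level than the receptor in each library: the FPKM ratio of Ret to Gfra1 was 0.167 ± 0.0299 in wild-type and 0.208 ± 0.0130 in knockout kidneys (SD, n = 3 each), with overlapping libraries (exact permutation p = 0.2). That overlap came from wild-type library 3, at 0.199 against 0.197 in knockout library 3. Wild-type libraries 1 and 2 lay at 0.139 and 0.163. Ret relative to its ligand Gdnf was 0.532, 0.558 and 0.727 in wild-type libraries and 0.819, 0.864 and 0.759 in knockout libraries. These values did not overlap (exact permutation p = 0.1, the smallest possible).

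A list of ureteric epithelium and trunk markers was then set beside the tip genes. Whether each marker is confined to that epithelium in these kidneys was not tested. Of 12 markers of ureteric epithelium and trunk, 10 were higher in knockout kidneys at an unadjusted p under 0.05 (9.14% of all tested genes), 0 were lower and 0 were called by limma, with a median log2 change of 0.24. The other 2, Tfcp2l1 (log2 change -0.02, adjusted p = 0.948 by limma) and Elf5 (-0.10, adjusted p = 0.690), lay below 0 with overlapping libraries. The 10 became 8 with equal sums and 5 to 9 with 1 library left out, 5 being the count without knockout library 3. Without wild-type library 3 the list had 8 higher and 1 lower at that threshold. Calb1, encoding the calcium-binding protein calbindin, measured 70.1 ± 1.66 FPKM in wild-type against 82.0 ± 1.15 FPKM in knockout libraries (SD, n = 3 per group; log2 change 0.22, adjusted p = 0.101), and Hoxb7, a transcription factor gene of the ureteric lineage, 27.5 and 33.0 FPKM (log2 change 0.25, adjusted p = 0.144). The mean log2(FPKM + 1) of the 12 markers was 4.85, 4.86 and 4.74 in wild-type libraries and 5.02, 5.03 and 5.05 in knockout libraries, a difference of 0.22. When the same mean was subtracted in each library, the difference of Etv4 was 0.00, that of Etv5 0.10 and that of Ret 0.14, each with overlapping groups. Spry1 kept a difference of 0.35 with no overlap. Gdnf lay at -0.24 and Gfra1 at -0.14 relative to these markers, with each knockout library below each wild-type library. Before subtraction their log2 changes were -0.02 and 0.08, so these negative values come from the difference of the marker mean. Gdnf comes from the mesenchyme, so these are not markers of its own cells. Wild-type library 3 had the lowest marker mean, and without it the relative difference was 0.29 for Ret with no overlap, 0.18 for Etv5 and 0.05 for Etv4, both with overlap, and 0.41 for Spry1.

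Gdnf is transcribed mainly by nephron progenitors of the cap mesenchyme, so it was also set against 12 of their markers. All 12 had log2 changes above 0 (11 with equal sums or quantile normalization, 10 to 12 with 1 library left out), as did 49.6% of all tested genes. Of these 4 were higher at an unadjusted p under 0.05 by limma, where 9.14% of all tested genes were. The list had 0 calls and a median of 0.13. Wt1, a transcription factor gene of progenitors and podocytes (log2 change 0.30, limma adjusted p = 0.116), and Itga8, an integrin subunit gene needed for Gdnf expression (log2 change 0.41, limma adjusted p = 0.117), had the smallest p. In 4 of the 12 (Wt1, Itga8, Hoxa11 and Sall1) each knockout library lay above each wild-type library, as in 12.5% of all tested genes. All of these but Wt1 are also in the list of inducers below. Cited1 (log2 change 0.05), Crym (0.06) and Meox1 (0.02) were among those with overlapping libraries. The mean of the 12 differed by 0.15, and values relative to it depend on this choice of markers. Relative to the mean of these markers Gdnf was at -0.57, -0.43 and -0.61 in wild-type libraries and -0.66, -0.79 and -0.65 in knockout libraries on the log2 scale. The difference of -0.17 came with no overlap, and it was -0.20 without wild-type library 3. It comes mostly from the marker mean, since Gdnf itself had a log2 change of -0.02. Spry1 relative to the same markers differed by 0.42, also without overlap.

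**Figure D3:**
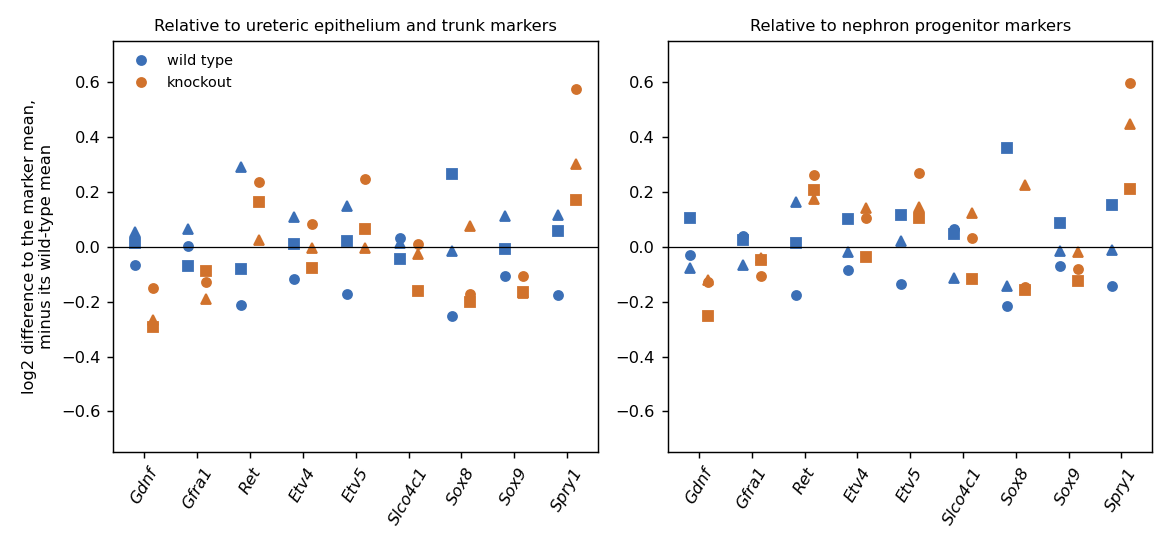
Each gene's log2(FPKM + 1) minus the mean of 12 ureteric epithelium and trunk markers (left) or of 12 nephron progenitor markers (right) in the same library, with the wild-type mean set to 0. Blue is wild type, orange knockout, and circles, squares and triangles are replicates 1, 2 and 3. Spry1 lies above and Gdnf below the wild-type libraries in both panels, and Etv4 and Etv5 overlap in both. Before the marker means were subtracted, the log2 change of Gdnf was -0.02.

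Other genes around this pathway, from lists chosen for their roles, had 0 calls by limma over all genes with all 6 libraries. At an unadjusted p under 0.05 by limma, 9.14% of all tested genes were higher and 6.94% lower. Among 7 tested genes of other GDNF family ligands and receptors, 1 passed that threshold upward and 1 downward. Gfra2, the receptor for neurturin, averaged 2.71 FPKM in wild type against 3.84 FPKM in knockout (log2 change 0.39, adjusted p = 0.212), and its ligand gene Nrtn 2.20 and 1.59 FPKM (log2 change -0.31, adjusted p = 0.265). Among 20 tested genes listed as inducers of Gdnf or Ret 7 were higher and 2 lower unadjusted, with a median log2 change of 0.15. The lower ones were Rarb, a retinoic acid receptor gene, and Fat4, a stromal cadherin gene. Rarb averaged 31.8 FPKM in wild type against 24.5 FPKM in knockout (log2 change -0.36, limma adjusted p = 0.0611). Fat4 averaged 32.3 and 25.4 FPKM (log2 change -0.34, limma adjusted p = 0.103). Whether each listed gene, Fat4 included, induces Gdnf or Ret in these kidneys was not tested. Itga8, Hoxa11 and Sall1, among the higher ones, are also nephron progenitor markers counted above. Stromal retinoic acid signalling is known to maintain Ret in the tip; here its receptor and enzyme genes did not share a direction. Beside Rarb, the list holds the receptor gene Rara (5.75 against 8.06 FPKM, log2 change 0.43, adjusted p = 0.113) and Aldh1a2, which encodes a retinoic acid synthesis enzyme (96.7 against 107.6 FPKM, log2 change 0.16, adjusted p = 0.310), both with each knockout library above each wild-type library. Rarb was called lower with a filter at 5 FPKM (adjusted p = 0.0382) or equal sums (adjusted p = 0.0295), and Itga8 higher without wild-type library 1 (log2 change 0.51, adjusted p = 0.0162). Rarb shares 1793 exon bases with Top2b on the opposite strand, and the use of strand in the quantification is not stated.

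Of 12 genes listed as inhibitors, 3 passed an unadjusted p of 0.05 upward and 2 downward (9.14% and 6.94% of all tested genes). Whether each of them, Dcn included, inhibits GDNF-RET signalling in these kidneys was not tested. Spry4, a relative of Spry1 that is also a feedback antagonist, measured 3.03, 3.58 and 3.51 FPKM in wild-type libraries and 5.40, 4.43 and 4.63 FPKM in knockout libraries (log2 change 0.41, limma adjusted p = 0.140). Dcn, the gene of the matrix proteoglycan decorin, averaged 61.3 ± 17.9 FPKM in wild type against 29.3 ± 2.98 FPKM in knockout (SD, n = 3 per group; log2 change -1.01, limma adjusted p = 0.145), with wild-type library 3 at 81.9 FPKM. Without that library Dcn was called lower (log2 change -0.78, limma adjusted p = 0.0178). Among 12 further tip genes 1 was higher at an unadjusted p under 0.05 by limma and 0 were lower, with a median log2 change of 0.04. Mmp14, a membrane-bound matrix metalloproteinase gene, did not pass that threshold (log2 change 0.39, limma adjusted p = 0.370). FGF signals also raise Etv4 and Etv5, and of 8 FGF ligand and receptor genes 3 were higher unadjusted (9.14% of all tested genes). Fgfr1 averaged 34.6 FPKM in wild type against 45.3 FPKM in knockout (log2 change 0.38, limma adjusted p = 0.110), and the decoy-like receptor gene Fgfrl1 8.48 and 10.6 FPKM (log2 change 0.30, limma adjusted p = 0.178).

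**Figure D4:**
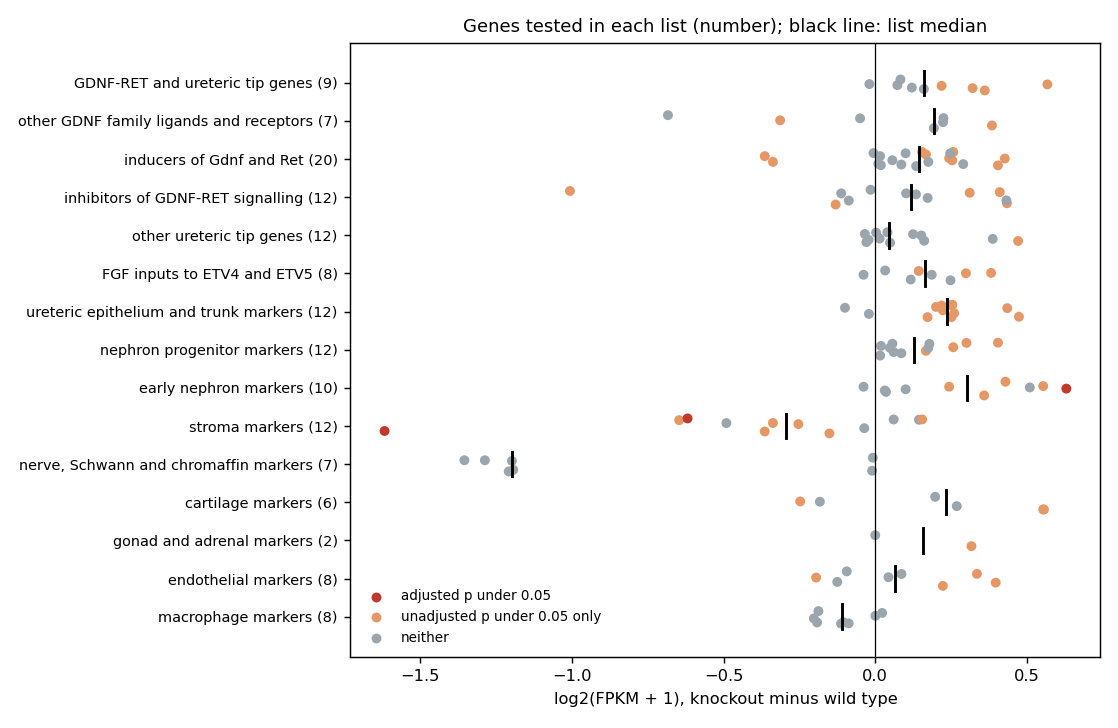
Log2 change, knockout minus wild type (horizontal axis), of each tested gene in the 9-gene set and in 14 lists, with the number tested in brackets. Red points were called at an adjusted p under 0.05, orange points had only an unadjusted p under 0.05, grey points neither, and black lines are list medians. Most ureteric epithelium markers lie together to the right of 0, with a median of 0.24, while stroma markers have a median of -0.30.

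Markers of the other compartments show what moved beside the tip genes. Among 12 stroma markers, which include Rarb and Fat4, 7 passed an unadjusted p of 0.05 downward and 1 upward (6.94% and 9.14% of all tested genes). By limma 2 were called lower (0.604% of all tested genes): Ntn1, which encodes netrin-1 (10.2 against 2.63 FPKM, log2 change -1.62, adjusted p = 0.00138), and Col3a1, a fibrillar collagen gene (275 against 178 FPKM, log2 change -0.62, adjusted p = 0.0237). Ntn1 was called in 13 of 13 alternatives, and Col3a1 lost its call in 7 of them (adjusted p up to 0.116). The summed level of the stroma list was 730 to 807 FPKM in wild-type and 625 to 655 FPKM in knockout libraries. Col3a1, the most abundant gene of the list, weighs most in that sum. The markers did not share a direction: 9 had log2 changes below 0 and 3 above it (Aldh1a2 0.16, Pdgfra 0.14 and Meis2 0.06). Wnt4, a ligand gene needed for mesenchyme to form nephrons, was the 1 call among 10 early nephron genes (0.13% of all tested genes were called higher) and rose from 12.7 to 20.1 FPKM (log2 change 0.63, adjusted p = 0.0402), but it lost that call in 8 of 13 alternatives (adjusted p up to 0.169). Bmper, a BMP modulator gene, was not called (log2 change 0.36, adjusted p = 0.0889). Of 8 endothelial genes 3 were higher unadjusted (Plvap log2 change 0.40, Robo4 0.34, Tie1 0.22) and 1 lower (Tek -0.19), with a list median of 0.07. Over all tested genes the shares were 9.14% and 6.94%. Of 8 macrophage genes 0 passed (Ptprc -0.20, Csf1r -0.19). Of 7 tested nerve genes 0 passed either threshold: Stmn2 and Prph had log2 changes of -1.21 and -1.19 (adjusted p = 0.527 and 0.638), with wild-type library 3 at 17.2 and 11.7 FPKM and the other 5 libraries at no more than 2.04 and 0.357 FPKM. Of 10 gonad and adrenal markers 7 stayed under 1 FPKM in all libraries, and 2 were tested: Star, at 3.08 to 3.66 FPKM, had a log2 change of 0.00, and Mc2r, at 1.12 to 2.01 FPKM, of 0.32. The adrenal steroid enzyme gene Hsd3b1 measured 1.22 FPKM in wild-type library 3 and at most 0.162 FPKM in the other 5. The part of a shift in cell makeup in the values of the tip genes was not tested beyond the ratios to markers given above.

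By a rule based on likeness, the genes that followed Gdnf, Ret and Etv5 most closely over the 6 libraries were found among the 11083 genes averaging 5 FPKM or more. As a description, the nearest to Ret were Tmem214, Cntrob and Tmem170 (Pearson correlations of 0.998, 0.997 and 0.996), and to Etv5 Ddr1, Evi5l and Hmg20b (0.998, 0.996 and 0.995). With 6 libraries such values are common: 2.12% of the genes reached 0.95 with Ret and 2.63% with Etv5. For Gdnf only 0.0902% did, led by Arhgap31, Wasl and Srgap1 (0.993, 0.977 and 0.977). Libraries share depth, handling and genotype, so these orders say nothing of shared control.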

How the data were processed

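FPKM values for 6 libraries were deposited by the authors in 1 table. The tools named per the submitters' processing notes are bcl2fastq 2.17.1.14 and Salmon, with the build GRCm38 (mm10). No label gives the Salmon version, annotation release, strandedness or filters. The median log2 ratio of each library to the geometric mean was 0.0038 throughout, so the deposited values already carry a scaling between libraries. Symbols were found for 24469 of 24749 identifiers, and positions and exon overlaps came from GENCODE M21. Values were analysed as log2(FPKM + 1) with limma 3.58.1 in R 4.3.3 (genotype as the only term, trend and robust moderation, Benjamini-Hochberg adjustment over 16899 genes averaging 0.5 FPKM or more, called at adjusted p under 0.05). The procedure was tested on 10 simulated tables with spreads taken from these data and 200 changed genes each. It called 4.2% of log2 changes of 0.25, 53.8% of those of 0.5 and 88.8% of those of 1. Unchanged genes made up 6.64% of the calls. Small changes would thus mostly go uncalled, and a gene without a call is not shown to be unchanged. Log2 changes on this scale understate low genes. Percentages of wild type and ratios use FPKM. Exact two-sided permutation tests used the 20 assignments of samples. Fragments per library and per gene are approximate. They take the longest annotated transcript as length and 1-transcript genes of at least 2000 bases for the step of 1 fragment. That step was sought only within a fixed range of low values, which bounds the result in advance. Such fragment numbers cover counting error only. Named genes were the 9, Yap1 and Wwtr1, from each list up to 4 called genes and at least 2 genes, by smallest p, and 3 genes by likeness; other names (Rara, Aldh1a2, Hsd3b1 and further markers) were chosen after their values were seen. Members and lists were chosen with earlier results of these data known. The 14 lists hold 142 different genes, 123 of them tested. Some genes stand in more than 1 list, as Itga8 does among inducers and progenitor markers and Pax8 among inducers and early nephron genes. Counts of such lists are thus not separate results. Groups were taken from sample titles. Some genes of the lists are not reported here.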

Additional observations from a re-analysis of the deposited data

How the results depend on the processing

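Over 13 alternatives (pseudocount of 0.1, no filter or a filter at 5 FPKM, equal sums, quantile normalization, no robust option, replicate block, and each library left out) 0 of the 9 genes were called, and log2 changes kept their sign except for Gdnf, whose log2 change of -0.02 ran from -0.0542 to 0.00971 with 1 library left out and was above 0 without knockout library 2 or wild-type library 2. Sox8 and Sox9 have no value with the filter at 5 FPKM. Genes called over the whole table numbered 124, and 54 to 158 with 1 library left out, which also leaves fewer samples. With the replicate number as a block 32 genes were called and 0 of the 9. The labels do not say that a replicate number is shared between the groups. Deviations of same-numbered libraries correlated at 0.02, -0.04 and 0.05, and not every library matched its own number best. With 3 libraries a group such values cannot settle whether the numbers mark a pairing. Genes among the 9 whose groups did not overlap numbered 6, and 3 with equal sums; this count, that of log2 changes above 0, that of unadjusted p and the calls of list genes were run over the alternatives after seeing the data. Depth limits Sox8 most. Spread was estimated from 3 libraries a group.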

Other observations

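Cartilage genes that SOX9 is known to activate were looked at beside Sox9, whose log2 change was 0.07. Col2a1, the type II collagen gene, measured 2.95, 4.47 and 4.10 FPKM in wild-type libraries and 7.02, 5.80 and 5.39 FPKM in knockout libraries (log2 change 0.55, limma adjusted p = 0.155). Col9a1, a type IX collagen gene, measured 3.07, 4.72 and 4.26 FPKM in wild-type libraries and 5.70, 6.45 and 6.80 FPKM in knockout libraries (log2 change 0.56, limma adjusted p = 0.142). Neither was called, and 0 of the 6 tested cartilage markers were. The other tested markers did not share a direction: Cnmd (log2 change -0.25, unadjusted p = 0.0278 by limma, adjusted p = 0.255, each knockout library below each wild-type library) and Hapln1 (-0.18) were lower, and Col9a2 (0.27) and Col11a2 (0.20) higher, with overlapping libraries for all but Cnmd. Acan, the aggrecan gene that defines cartilage, stayed at or under 0.311 FPKM in all libraries, with Matn1 and Matn3 under 1 FPKM as well.

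Library 1 of each group held many of the extreme values of the 9 genes. Knockout library 1 was the highest of the 6 for 6 of the 9 genes, and wild-type library 1 the lowest for 6 of the 9. Over all tested genes these libraries were highest and lowest for 20.5% and 25.8%. Without knockout library 1 the log2 change of Spry1 was 0.46, and without wild-type library 1 it was 0.50.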
